A study of Rattus norvegicus with 6 samples.

Results

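SMAD proteins carry the signal of TGF-β and BMP receptors to the nucleus, and the genes described here encode 7 of them and 3 proteins that restrain them. The genes were chosen by name: Smad1 to Smad7, the corepressor genes Skil and Tgif1, and the ubiquitin ligase gene Smurf1. All 10 were measured, among 14217 genes, by 22 of the 20826 probe sets that the platform annotation pairs with 1 gene symbol. A probe set is a group of short probes on the array that reads 1 transcript region. The main value of a gene comes from its brightest probe set by mean over the 6 arrays, and every other probe set is given beside it.

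RNA came from NRK-52E cells, an established epithelial line from normal rat kidney tubule, grown in culture. Both groups received recombinant TGF-β1 at 10 ng/mL for 24 h, which drives these cells towards a mesenchymal state, and both carried a lentivirus. In 1 group (shAMPKα2, 3 arrays) the virus encoded a hairpin RNA aimed at AMPKα2, 1 of the catalytic subunits of AMP-activated protein kinase, which senses cell energy, and in the other (shCtrl, 3 arrays) it was the control virus. The comparison asks how gene expression under TGF-β1 differs when this subunit is targeted. Cells without TGF-β1 were not analysed here, so no value below is a response to TGF-β1. Each array is labelled a biological replicate, and how the cultures were kept apart, and whether the transduced cells were a clone, are not given in the sources used here.

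TGF-β and activin receptors phosphorylate SMAD2 and SMAD3, while BMP receptors phosphorylate SMAD1, SMAD5 and SMAD9. The phosphorylated proteins join SMAD4, enter the nucleus and regulate genes, among them those for their own inhibitors SMAD6, SMAD7 and SKIL, which close a feedback loop. In kidney tubule cells SMAD3 is known as a mediator of matrix gene induction and SMAD7 as its antagonist.

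The targeted gene and the arrays bear on every value. Prkaa2, which encodes AMPKα2, stood at 6.64, 6.76 and 6.49 on the shAMPKα2 arrays and at 6.83, 6.79 and 6.89 on the shCtrl arrays, on the deposited log2 scale. Its log2 fold change was -0.21 and failed the threshold (limma, adjusted p = 0.0552), although every shAMPKα2 array lay below every shCtrl array. It passed after median centring (-0.42, adjusted p = 0.00145) and without shAMPKα2 replicate 2 (-0.27, adjusted p = 0.0181), and not under quantile scaling (-0.05) or cyclic loess (-0.15). The same -0.21 passed without the lowest 25% of genes (adjusted p = 0.0474) and with the mean of probe sets (adjusted p = 0.0446). In the first of those 2 fits fewer genes were tested, and in the second the values of other genes differed. The Prkaa2 values were the same in both. Whether the gene was lower thus rests on the processing, and groups are called as labelled. The shAMPKα2 arrays had a narrower range, with an SD over probe sets of 1.76 to 1.82 against 2.17 to 2.19, and the change of a gene followed its level. At control levels of 5 to 6 the median change of 1899 genes was 0.81, and at 9 to 10 that of 1602 genes was -0.90. Each member is therefore also set beside the 500 genes nearest to it in mean level on the shCtrl arrays, and its change is given after 3 rescalings (quantile normalization, cyclic loess and median centring). Together with the deposited values these are called the 4 scalings.

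Of 13 measured tubule epithelium markers, the keratin gene Krt8, at 12.49 on the shCtrl arrays, was the only 1 above the median gene of 6.99. The epithelial adhesion genes Cdh1 and Epcam stood at 4.31 and 2.97, and low values on different probe sets do not show absence. Marker sums moved with the groups. Over 7 fibroblast markers the summed log2 level was 38.2 to 38.5 on the shCtrl arrays and 46.0 to 46.5 on the shAMPKα2 arrays. All 7 passed higher as deposited, where 43.6% of all genes did. So did 11 of 13 tubule, 4 of 5 endothelial, 5 of 6 leukocyte and 2 of 4 podocyte markers, also as deposited. Under cyclic loess the changes of Krt8, Cdh1 and Epcam were 0.10, -0.11 and 0.23, and none of them passed. The median control levels of the lists were 4.49 to 5.74. Genes at control levels of 4 to 5 and 5 to 6 had median changes of 0.79 and 0.81. Set against the 500 genes nearest in control level, the fibroblast markers Col3a1 and Postn lay 2.37 and 1.77 above the median. Pdgfrb, Lum, Pdgfra, Thy1 and Dcn differed from theirs by 0.29, 0.26, 0.18, 0.16 and -0.11. The sums of 13 tubule markers were 68.1 to 69.2 and 76.4 to 77.0, those of 5 endothelial markers 20.6 to 21.6 and 24.0 to 25.2, those of 6 leukocyte markers 33.8 to 34.4 and 36.5 to 37.2, and those of 4 podocyte markers 23.6 to 24.1 and 24.2 to 25.5. Their part in the results was not tested, and in bulk RNA fewer cells of a type and less RNA per cell cannot be told apart.

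Most of the 10 genes read lower with the AMPKα2 hairpin. With the values as deposited, 9 of the 10 passed lower and 1 passed higher at an adjusted p of 0.05, where 41.5% of all genes passed lower and 43.6% higher. The 10 genes lie at levels where most genes fell, and among their genes of like control level 78.2% passed lower on average. Skil, Smurf1, Smad5, Smad1, Smad3 and Smad7 passed lower in all 4 scalings, a share of 60% where 26.4% of all genes did, and 0 passed higher in all 4, where 25.5% of all genes did. Among genes of like level the share lower in all 4 was 44.3% on average and ran from 38.6% to 50.2% over the 10 neighbourhoods. The share higher in all 4 was 4.98% there on average. In none of the 10 genes did the groups overlap on the main probe set, which held for 87.1% of all genes. The median change of the 10 genes was -1.36 as deposited, -0.74 under quantile scaling, -0.75 under cyclic loess and -1.57 after median centring, while that of all genes was 0.05, 0.16, 0.09 and -0.17. In the rescaled values 6 members passed lower and 2 higher under quantile normalization (28.9% and 43.8% of all genes), 6 and 2 under cyclic loess (31.5% and 40.2%), and 9 and 0 under median centring (48.2% and 35%). At least a 2-fold fall was seen in 6 of the 10, where 18.6% of all genes had one. That share was not counted among genes of like level. As deposited, the medians of those genes ran from -0.94 (near Smad1) to -0.49 (near Smad6), and their lower quartiles from -1.46 to -0.98.

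**Figure D1:**
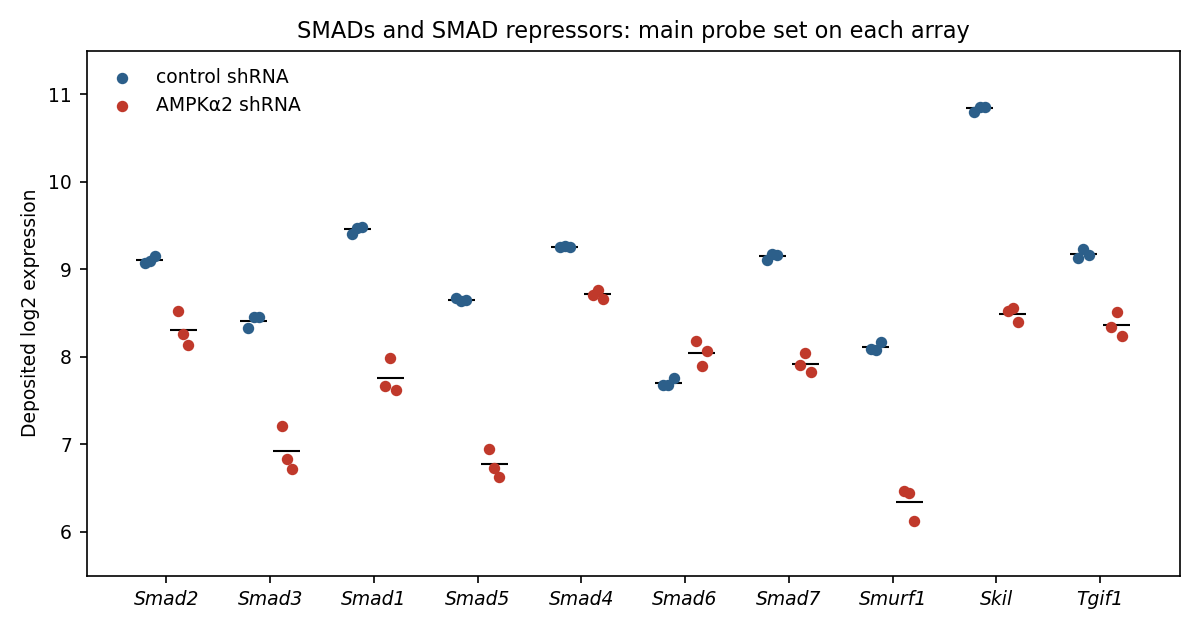
Deposited log2 expression (vertical axis) of the main probe set of each gene on the 3 shCtrl arrays (blue) and the 3 shAMPKα2 arrays (red), with the group mean as a black line. Smad6 is the gene whose shAMPKα2 arrays lie above its shCtrl arrays, and Skil has the widest gap, from a mean of 10.84 to 8.50.

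The TGF-β branch is represented by Smad2 and Smad3, whose difference was not tested. Smad2, which encodes a receptor-activated SMAD, read 8.53, 8.26 and 8.14 on the shAMPKα2 arrays and 9.07, 9.10 and 9.15 on the shCtrl arrays. Every shAMPKα2 array lay below every shCtrl array. The log2 fold change was -0.80 (SE 0.11, limma, adjusted p = 3.16e-05), and its 500 genes of like level had a median of -0.89. Under quantile scaling (-0.05, adjusted p = 0.638) and cyclic loess (-0.09, adjusted p = 0.368) the change of Smad2 did not pass. Its fall as deposited was thus close to the median of genes at its level.

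Smad3, the SMAD most tied to matrix genes under TGF-β, gave opposite readings from its pair of probe sets. The main probe set read 7.21, 6.83 and 6.72 on the shAMPKα2 arrays against 8.33, 8.45 and 8.45 on the shCtrl arrays. This change of -1.49 (SE 0.12, limma, adjusted p = 8.68e-07) went beyond the median of -0.64 at its level and past its lower quartile of -1.27, and stayed at -1.01 under quantile scaling and -0.98 under cyclic loess. The other probe set, which the annotation pairs with a RefSeq transcript, read 6.31, 6.23 and 6.39 against 5.28, 5.01 and 5.43. There every shAMPKα2 array lay above every shCtrl array. It rose by 1.07 (SE 0.11, limma over all probe sets, adjusted p = 6.52e-06), and by 0.85 under quantile scaling and 0.61 under cyclic loess. Probe sets of its lower control level had a median of 0.71. With the mean of both probe sets the change of Smad3 was -0.21 and did not pass (adjusted p = 0.0507), so the direction for the gene rests on the choice of probe set.

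Among the BMP-branch SMADs, Smad1 fell on both of its probe sets. The main probe set read 7.67, 7.99 and 7.63 on the shAMPKα2 arrays and 9.41, 9.48 and 9.49 on the shCtrl arrays, a change of -1.70 (SE 0.10, limma, adjusted p = 1.16e-07). The other read 6.29, 6.33 and 6.25 against 7.62, 7.67 and 7.46, a change of -1.30. The groups were far apart on both. Under quantile scaling the changes were -0.99 and -1.12, and under cyclic loess again -0.99 and -1.12. Genes at the level of the main probe set had a median of -0.94.

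Smad5, which encodes a close relative of SMAD1, was read by 4 probe sets. The main one read 6.95, 6.73 and 6.63 against 8.67, 8.63 and 8.65, with a change of -1.88 (SE 0.10, limma, adjusted p = 3.26e-08) where genes of its level had a median of -0.81. Rescaling gave -1.42 (quantile) and -1.35 (loess). The probe set paired with a RefSeq transcript also fell, by 0.64, at a control level of 6.16, where probe sets of like level had a median of 0.29. The remaining ones, at control levels of 7.03 and 6.79, went the other way, at 0.57 and 0.35. The first of these passed higher in all 4 scalings and the second did not pass after median centring (0.13). The mean over the 4 probe sets changed by -0.40 (limma, adjusted p = 0.000648).

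Smad4, the partner shared by both branches, had the smallest lower reading. It read 8.71, 8.77 and 8.67 on the shAMPKα2 arrays and 9.26, 9.27 and 9.26 on the shCtrl arrays. The change of -0.55 (SE 0.08, limma, adjusted p = 5.96e-05) turned to 0.22 (adjusted p = 0.0155) under quantile scaling and to 0.18 (adjusted p = 0.0382) under cyclic loess, and was -0.76 after median centring. Genes of its level had a median of -0.89, and 68.8% of them had a more negative change. The other probe set, at a control level of 8.32, had a change of -0.08 that did not pass, then 0.62 under quantile scaling and 0.59 under cyclic loess, both of which passed. No direction that held across scalings was found for Smad4.

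The inhibitory SMADs parted on their main probe sets. Smad7, a feedback inhibitor that blocks receptors and recruits ubiquitin ligases to them, read 7.90, 8.04 and 7.83 on the shAMPKα2 arrays and 9.10, 9.18 and 9.16 on the shCtrl arrays. It fell by 1.23 (SE 0.09, limma, adjusted p = 3.00e-07), with -0.50 under quantile scaling and -0.53 under cyclic loess. Genes of its level had a median of -0.92 and quartiles of -1.46 and -0.42, so the fall lay inside the range of the middle genes. Of the other probe sets, that at a control level of 6.64 fell by 1.07 where its level had a median of -0.18, with -1.21 and -1.37 under quantile scaling and cyclic loess. The other one, at a control level of 6.65, had 0.14 and did not pass, with 0.32 under quantile scaling, which passed, and 0.19 under cyclic loess, which did not.

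Smad6, an inhibitor mainly of the BMP branch, was the gene whose main probe set passed higher. It read 8.18, 7.89 and 8.07 on the shAMPKα2 arrays and 7.67, 7.68 and 7.76 on the shCtrl arrays, a change of 0.34 (SE 0.09, limma, adjusted p = 0.00560). Under quantile scaling it was 0.94 and under cyclic loess 0.92, and after median centring 0.12, which did not pass (adjusted p = 0.234). Genes of its level had a median of -0.49, and 86.6% of them lay below it. A further probe set, whose control level of 8.33 was above the 7.70 of the main one, read 7.22, 7.39 and 7.07 against 8.34, 8.28 and 8.38. It passed lower in all 4 scalings, with -1.11 as deposited and -0.56 under cyclic loess. Probe sets of its level had a median of -0.73 and quartiles of -1.32 and -0.18. The remaining probe sets stood at low control levels of 5.06 and 4.66. The first passed higher in all 4 scalings, with 0.81 as deposited and 0.25 under cyclic loess. The second had 0.13, which did not pass, and -0.44 under cyclic loess, which did. Probe sets of their levels had medians of 0.68 and 0.71. The mean of the 4 was 0.04 and did not pass (adjusted p = 0.600), so the array gave no single direction for Smad6.

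Smurf1, the ubiquitin ligase that marks BMP-branch SMADs and receptors for destruction, fell on its main probe set. The values were 6.47, 6.44 and 6.12 on the shAMPKα2 arrays and 8.09, 8.08 and 8.17 on the shCtrl arrays. The change of -1.77 (SE 0.10, limma, adjusted p = 8.99e-08) was -1.49 under quantile scaling and -1.44 under cyclic loess, and only 7.6% of genes of its level changed by a more negative amount. The other probe set, at a control level of 6.97, had -0.22 (adjusted p = 0.0405), with 0.01 under quantile scaling and -0.09 under cyclic loess, neither of which passed. The mean of both fell by 0.99.

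Of the nuclear corepressors, Skil had the largest change of the 10 genes. SKIL (SnoN) binds SMAD complexes and silences their targets, and is itself induced by them. Its probe set read 8.53, 8.56 and 8.39 on the shAMPKα2 arrays and 10.80, 10.86 and 10.86 on the shCtrl arrays. The change of -2.34 (SE 0.08, 95% interval -2.53 to -2.16, limma, adjusted p = 3.92e-09) is a 5.08-fold lower value on the linear scale. Genes of its level had a median of -0.81, and 4.6% of them changed by a more negative amount. It was -1.69 under quantile scaling, -1.65 under cyclic loess and -2.56 after median centring. Skil has 1 probe set, so no further region of the transcript was read.

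Tgif1, which encodes a homeodomain corepressor of SMAD2 and SMAD3, read 8.34, 8.51 and 8.24 on the shAMPKα2 arrays and 9.13, 9.23 and 9.16 on the shCtrl arrays. Its change of -0.81 (SE 0.09, limma, adjusted p = 1.05e-05) lay beside a median of -0.88 at its level. Under quantile scaling (-0.05, adjusted p = 0.550) and cyclic loess (-0.09, adjusted p = 0.273) it did not pass. Of the corepressor genes, Skil thus lay far below the median of its level and Tgif1 close to it, and that difference was not tested.

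**Figure D2:**
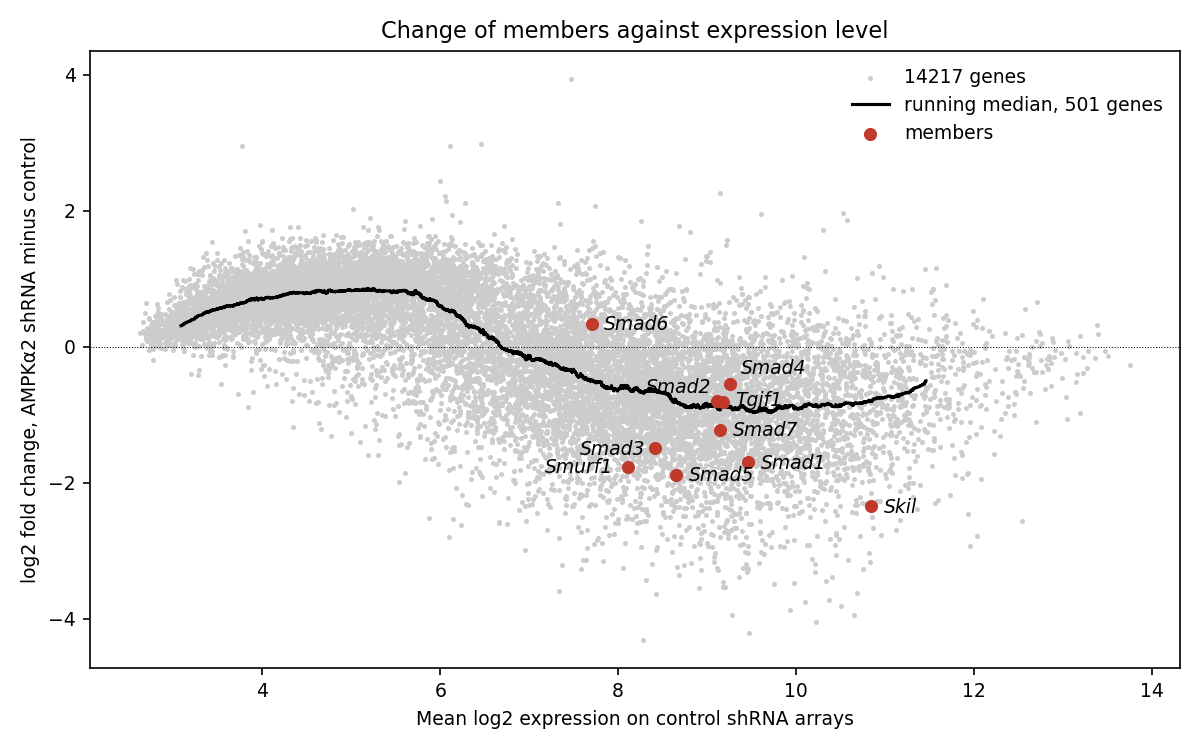
log2 fold change (shAMPKα2 minus shCtrl, vertical axis) against the mean log2 level on the shCtrl arrays (horizontal axis) for 14217 genes (grey), with a running median (black) and the 10 genes in red. Skil, Smurf1, Smad5, Smad3, Smad1 and Smad7 lie below the line, Smad2 and Tgif1 on it, and Smad6 and Smad4 above it.

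Set against genes of like level, the 10 genes fell into 3 kinds on their main probe sets. Skil (-1.54), Smurf1 (-1.15), Smad5 (-1.07), Smad3 (-0.85) and Smad1 (-0.76) differed from the median of their level by these amounts and lay past the lower quartile of their neighbours. Smad7 (-0.31), Smad2 (0.09), Tgif1 (0.07) and Smad4 (0.34) lay within the quartiles. Smad6 (0.83) lay past the upper quartile. The annotation pairs the main probe sets of Smad2, Smad4 and Smad7 with a RefSeq transcript, and not those of the other genes. With neighbours taken by the mean over the 6 arrays, Smad2 and Tgif1 turned to -0.093 and -0.023 and the other 8 kept their sign. Other probe sets, beside probe sets of like level, gave -0.73 for Smad1, 0.36 for Smad3, 0.65 for Smad4 and 0.05 for Smurf1. Those of Smad5 gave 0.87, 0.56 and -0.93, those of Smad6 -0.38, 0.13 and -0.58, and those of Smad7 0.32 and -0.89. The values of Smad1 and Smad3 and the -0.93 of Smad5 came from probe sets paired with a RefSeq transcript. Among genes with other probe sets, Smad1 alone kept its kind on each. These values are descriptions and carry no test.

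Across the 22 probe sets, 14 passed lower and 5 higher as deposited, where 39.5% of all probe sets with 1 symbol passed lower and 43.3% higher. In all 4 scalings 10 passed lower and 3 higher, where 27% and 22.8% of all did. Of the 7 genes with more than 1 probe set, Smad3, Smad5 and Smad6 had probe sets called both higher and lower, and each of these 3 kept such a pair in all 4 scalings. Among all 4525 genes with more than 1 probe set, 20.5% had opposite calls as deposited and 309 (6.83%) in all 4 scalings. Which exons or transcript ends the probe sets read was not analysed here.

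**Figure D3:**
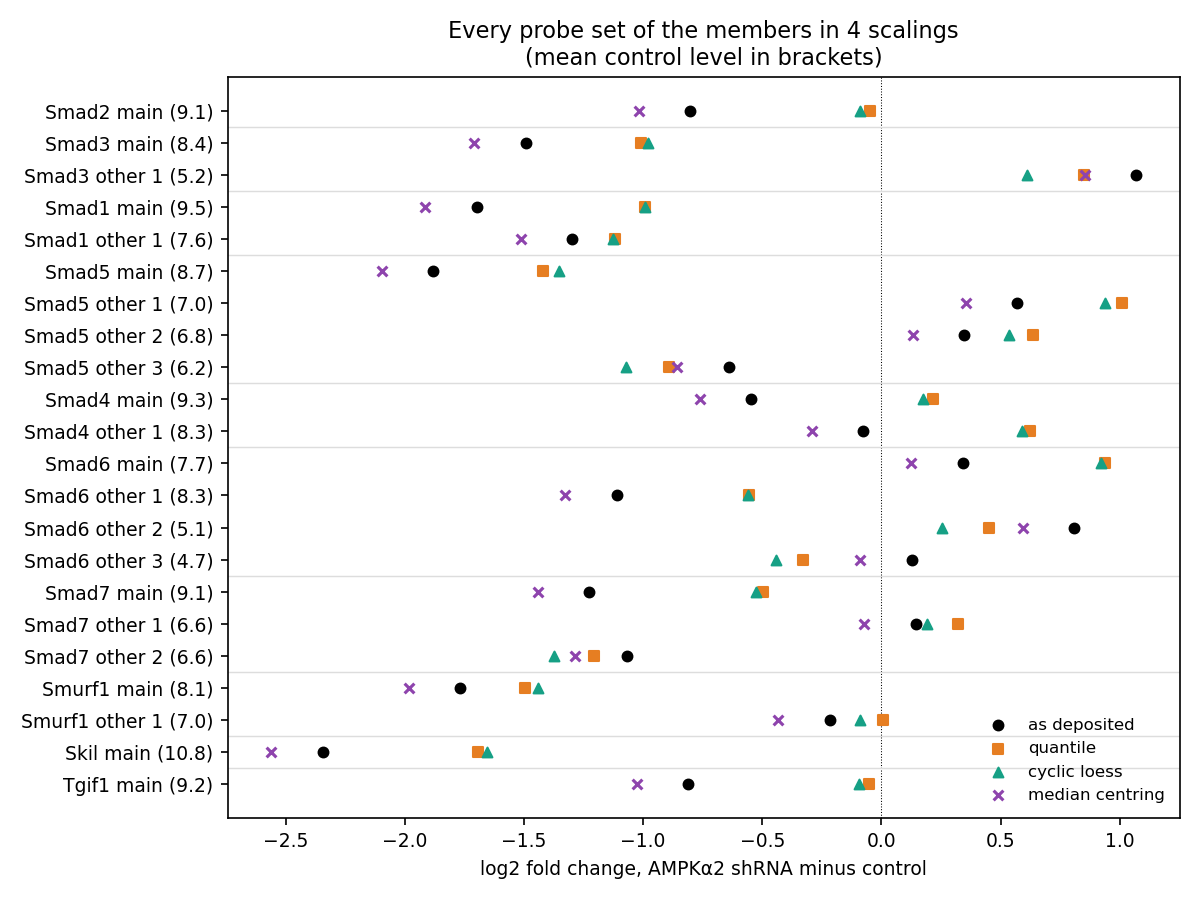
log2 fold change (shAMPKα2 minus shCtrl, horizontal axis) of each of the 22 probe sets as deposited (circle) and under quantile scaling (square), cyclic loess (triangle) and median centring (cross), with the mean shCtrl level in brackets. Skil, Smad2, Tgif1 and both probe sets of Smad1 stay below 0 in every scaling. Smad4 crosses 0, as does the other probe set of Smurf1, at 0.01 under quantile scaling. Smad3, Smad5, Smad6 and Smad7 have probe sets on both sides as deposited.

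The promoters of Skil, the gene with the largest fall, and Smad1, which fell on each of its probe sets, are shown because SMAD complexes bind short DNA boxes in the promoters of their feedback genes. The sequences are the 250 bases before the RefSeq gene start in build GRCr8, 5′ to 3′ on the gene's strand, at chr2:114203573-114203822 (minus strand) for Skil and chr19:45417292-45417541 (plus strand) for Smad1. Capitals mark the SMAD box core CAGAC (or GTCTG on the other strand) and the GC-rich SMAD site GGCGCC, which reads the same on both strands.
Skil: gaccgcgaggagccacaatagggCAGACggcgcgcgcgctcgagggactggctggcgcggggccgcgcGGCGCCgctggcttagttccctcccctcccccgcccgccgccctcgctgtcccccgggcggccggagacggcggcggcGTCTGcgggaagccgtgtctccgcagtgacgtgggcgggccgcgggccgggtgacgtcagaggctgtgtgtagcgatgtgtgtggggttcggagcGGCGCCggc
Smad1: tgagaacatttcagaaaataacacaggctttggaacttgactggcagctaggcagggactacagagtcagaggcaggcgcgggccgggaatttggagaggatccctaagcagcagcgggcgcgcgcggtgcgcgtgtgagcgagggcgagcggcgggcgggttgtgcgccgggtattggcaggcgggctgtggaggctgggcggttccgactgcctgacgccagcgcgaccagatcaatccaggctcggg
The Skil window held 2 CAGAC cores and 2 GGCGCC sites, and that of Smad1 held 0 of each. The promoter table matched 7 of the 10 genes, in 8 windows. Skil was the gene of these 7 with a CAGAC core, which 42.9% of all 33469 windows of this length hold. GGCGCC was held by 3 of the 7 (Smad2, Smad7 and Skil), in 4 of their 8 windows, and by 8.69% of all windows. The longer form CAGACA, which contains CAGAC, and the palindromic box GTCTAGAC were found in 0 of the 7 and in 17.2% and 0.173% of all windows. The windows with GGCGCC were 77.2% (Skil) to 82.8% (Smad2) G and C. The windows of the 7 genes without it were 30.8% (Smad4) to 68.4% (Smad3), with Smad1 at 64.8%. The median of all windows was 51.2%, and the share of GGCGCC was not compared among windows of like G and C content. A match of letters is a description and says nothing about binding in these cells.

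Close relatives of the 10 genes, singled out after their values had been seen, add to the picture. Smad9, which encodes the remaining BMP-branch SMAD, read 5.28, 5.41 and 5.14 against 7.10, 7.13 and 7.15 on its main probe set and fell by 1.85 (SE 0.09, limma over all probe sets, adjusted p = 3.26e-08), with -1.93 under quantile scaling and -2.11 under cyclic loess. Its other probe set, at a control level of 4.56, rose by 0.65 and did not pass under quantile scaling (0.20) or cyclic loess (0.05). Main probe sets of all the BMP-branch SMAD genes, Smad1, Smad5 and Smad9, thus passed lower in all 4 scalings. Smurf2, the ligase most like Smurf1, read 8.76 to 9.26 against 8.60 to 8.64, with a change of 0.39 (adjusted p = 0.0113) and of 0.49 on its other probe set. Under cyclic loess these were 1.11 and 1.20, and after median centring 0.17, which did not pass, and 0.27. Tgif2, related to Tgif1, had a change of -0.12 that did not pass, and of -0.64 under cyclic loess, which did. A test of the differences between relatives was not made.

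Receptors upstream of the SMADs changed in both directions. Of 10 measured receptor genes 4 passed higher and 5 lower, with a median of -0.13, and in all 4 scalings 3 passed higher and 3 lower, near the 25.5% and 26.4% of all genes. Bmpr1a, the type I BMP receptor gene, had a change of -1.91, and of -1.29 under cyclic loess. Bmpr2, the type II BMP receptor gene, fell by 1.38 on its main probe set while its other probe set passed higher, at 1.18. Tgfbr1, the type I TGF-β receptor gene, had -0.87 on the main probe set, and -0.26 under cyclic loess, while its other probe set rose by 1.09. The accessory receptor genes Tgfbr3 and Eng rose by 1.48 and 1.15, and Acvr1c, an activin receptor gene at a control level of 4.98, rose by 1.14 and by 0.61 under cyclic loess.

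Other SMAD partners and regulators were mostly lower as deposited, as were genes at their level. Of 46 measured, 37 passed lower and 2 higher, with a median of -0.74, where 41.5% of all genes passed lower and 43.6% higher. Their genes of like control level had a median of -0.81, and the list's median difference from them was -0.08. In all 4 scalings 22 (47.8%) passed lower and 0 higher, where 26.4% and 25.5% of all genes did. The list's median control level was 9.03. Among the 500 genes nearest to Smad2, which stood at 9.11, 46.4% passed lower and 3.8% higher in all 4 scalings. The largest falls in the list were those of Kat2b (-2.54), an acetyltransferase gene, Ipo7 (-2.30), an importin gene, and Smad9. Under quantile scaling 14 passed higher and 23 lower (43.8% and 28.9% of all genes), and under cyclic loess 11 and 23 (40.2% and 31.5%).

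Known targets of SMAD2 and SMAD3 passed higher more often than lower. Of 36 measured, 20 passed higher and 10 lower, with a median of 0.51, and in all 4 scalings 16 (44.4%) passed higher and 7 (19.4%) lower, where 25.5% and 26.4% of all genes did. Their genes of like level had a median of -0.31, and the list's median difference from them was 0.37. Tagln, a smooth muscle actin-binding gene, rose by 3.94, and the collagen genes Col1a1 and Col1a2 by 2.98 and 2.95. Timp1, a protease inhibitor gene, had -2.45, the integrin gene Itgb5 -1.63 and the clock-linked repressor gene Bhlhe40 -1.27.

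Targets of SMAD1 and SMAD5 were split evenly. Of 22 measured, 9 passed higher and 9 lower, with a median of 0.10 as deposited, -0.05 under quantile scaling, -0.11 under cyclic loess and -0.12 after median centring. In all 4 scalings 8 (36.4%) passed higher and 7 (31.8%) lower, where 25.5% and 26.4% of all genes did. Id2 and Id3, which encode inhibitors of helix-loop-helix factors and are classic BMP targets, had changes of -1.89 and -1.87, and of -1.19 and -1.32 under cyclic loess. Id1, another classic target, had -0.73 and then -0.16 under cyclic loess, beside a median of -0.73 at its level. The homeobox and T-box genes Msx2, Cdx2 and Tbx2, at control levels of 4.18, 4.72 and 6.06, rose by 1.38, 1.19 and 1.14, and by 0.79, 0.61 and 1.14 under cyclic loess. Genes of their levels had medians of 0.74, 0.81 and 0.55, and those of the levels of Id2 and Id3 had -0.85 and -0.57. The probe sets of Msx2 ran from 0.28 to 1.38 and those of Tbx2 from 0.84 to 1.36. Id1 was added after its values had been seen. Smad9, Bambi, Pmepa1 and Ldlrad4 each stand in more than 1 list. Col3a1 and Postn, which rose by 1.49 and 2.12, stand among both the fibroblast markers and the SMAD2/3 targets.

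**Figure D4:**
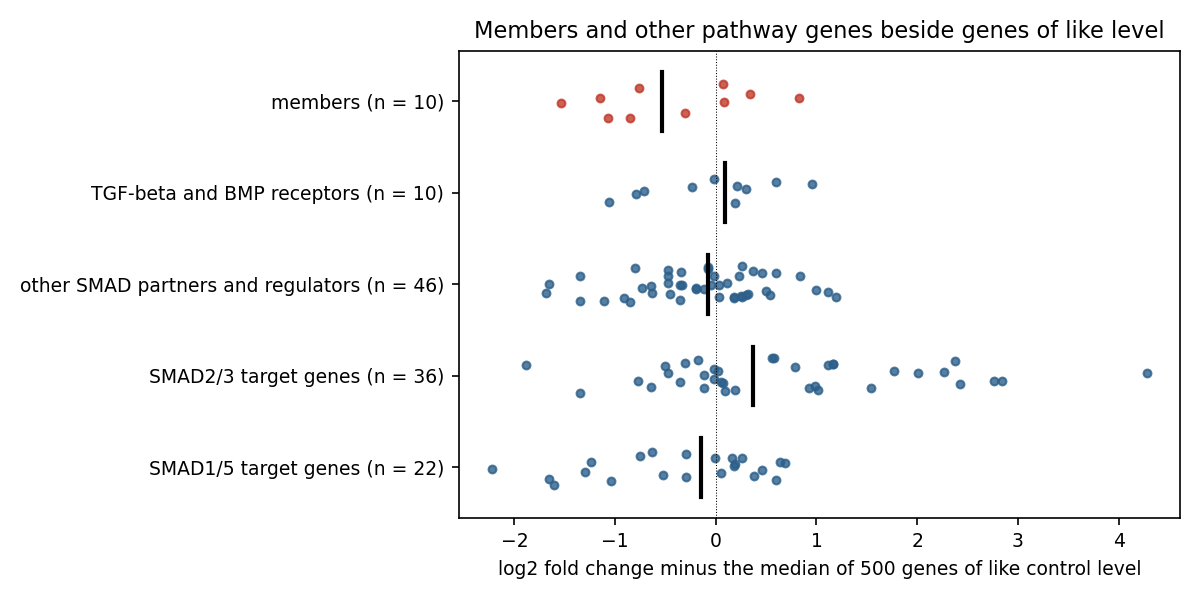
log2 fold change of each gene minus the median of the 500 genes nearest to it in shCtrl level (horizontal axis), for the 10 SMAD and repressor genes (red) and the other pathway lists (blue), with the median of each list as a black bar. The bars lie at -0.54 for the 10 genes, 0.09 for the receptors, -0.08 for the partners and regulators, 0.37 for SMAD2/3 targets and -0.15 for SMAD1/5 targets.

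Genes whose values over the 6 arrays ran closest to a member were found by the root mean square difference of their log2 values after each gene's mean was removed, for the 6 members that changed at least 2-fold. Closest to Skil were Paip1, Taf15 and Ect2, at 0.03, 0.03 and 0.04. Closest to Smad7 were Nudt21, Emp3 and Dnajb1, at 0.02, 0.02 and 0.03, and closest to Smurf1 were Tada1, Gas6 and Mtx2, at 0.02, 0.03 and 0.03. Smad1 lay closest to Ociad2, Cdk19 and Inf2, each at 0.04, Smad3 to Nelfe, Zfp68 and Myc, at 0.03, 0.04 and 0.04, and Smad5 to Sulf2, Bckdk and Abhd17c, each at 0.04. With 3 arrays a group, the measure mostly reads the size of the change between groups.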

How the data were processed

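Affymetrix rat arrays were hybridised with biotin-labelled cRNA made from 10 µg of total RNA, per the labels' protocols. The authors deposited log2 expression values, 1 per probe set and array. The log base was read from the range of the values, and background correction, probe summary, normalization and genome build are not given in the sources used here. Of 31042 probe sets that are not array controls, 20826 have 1 symbol in the platform annotation. A linear model (limma 3.58.1, with lmFit and eBayes, run in R 4.3.3) with no filter and no covariate gave 2-sided tests over 14217 genes, or over all probe sets, with Benjamini-Hochberg adjustment and a threshold of 0.05, and the steps were tested on simulated data. Changes are shAMPKα2 minus shCtrl on the log2 scale. An exact permutation test of 3 arrays against 3 cannot give a 2-sided p under 0.1. Members, lists, motifs and alternatives were chosen with earlier results of these data known, so no list has a test. Named from each list were the up to 3 higher and 3 lower genes that changed most while passing in all 4 scalings, and others are said to be picked later. Promoter sequences are from RefSeq.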

Additional observations from a re-analysis of the deposited data

How the results depend on the processing

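The count of 10 members changed was 10 without each array in turn, with an intensity trend, robust variance, array weights, a floor of 4, a threshold of 0.01 or the lowest genes removed. It was 8 under quantile scaling and cyclic loess (2 higher and 6 lower in both), 9 after median centring (0 higher), 8 with the mean of the probe sets (0 higher), 10 with the most variable probe set (0 higher), and 6, with 0 higher, at 2-fold or more. Smad4 turned to 0.22 and 0.18 under quantile scaling and cyclic loess, Smad6 to -1.11 with the most variable probe set, and Tgfbr1 to 0.11 with the mean and 1.09 with the most variable probe set. Beside genes of like mean over the 6 arrays, Smad2 turned to -0.093 and Tgif1 to -0.023. The cause of these turns was not tested. Over all genes, 12095 passed (6199 higher, 5896 lower), against 10337 under quantile scaling (6225 higher, 4112 lower), 10206 under cyclic loess (5722 and 4484), 11818 after median centring (4969 and 6849), 6023 without the lowest 50% of genes, where fewer were tested, 4293 at 2-fold or more, and 11573 to 12024 without each array. With the replicate number as a block, 12039 genes and 10 members passed. The deviations of same-numbered arrays correlated at -0.02, 0.01 and -0.10, so the numbers were not taken as pairs. Signal over background was not used here, and the number of arrays limits the precision.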
